A study of Mus musculus with 4 samples.

Results

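The 40 genes described here act in the cell division cycle and were taken as listed symbols in the feature tables, where all 40 of them are found among the 55450 genes. They fall by role into 19 mitotic genes, 12 replication genes, 3 D-type cyclins, 3 kinase inhibitors and 3 genes of the cytoskeleton and chromatin. Their counts were compared in 4 droplet single-cell RNA libraries from wild-type mice, 1 library per group. The groups are intestine 1 week after a treatment labelled NPs, intestine without treatment, brain 2 months after NPs, and brain without treatment. The labels do not spell out NPs. They name BALB/c mice at age 5 weeks and ICR mice at age 6 months without tying a strain to a tissue or saying how many mice went into a library, and the design text speaks of colon where the sample labels say intestine. Since each group is 1 library, no difference between NPs and untreated has a replicate check, no test was made, and every interval below is a 95% interval that covers counting error only.

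A cell enters the cycle when D-type cyclins with their kinases phosphorylate the retinoblastoma protein and release E2F factors, which switch on the replication genes for the S phase. Later the B-MYB and FOXM1 complexes switch on the mitotic genes, whose products condense, attach and separate the chromosomes, and the inhibitors p21 and p27 hold the kinases back. In adult mice such division is known for the crypt base of the gut, for germinal centre B cells, which multiply while they edit their antibody genes, and for the neural progenitors that supply the olfactory bulb, while most neurons, oligodendrocytes and ependymal cells have left the cycle.

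Of the 40 genes, 33 had a promoter in the RefSeq table of GRCm38.p6, and the mitotic and replication groups differed in the short motifs these hold. Each window runs from 250 bases before to 50 bases after the gene's start, and both strands were searched. A member gene counts once, if any of its promoters in the table holds the motif. The percentage of all is over single promoters, so the 2 measures are not quite alike. The CHR, TTTGAA, at which the B-MYB and FOXM1 complexes bind, was found for 13 of 17 mitotic genes and 1 of 10 replication genes (Mcm2). It was in 17.9% of all 32851 promoters. The CCAAT box, CCAAT, bound by the factor NF-Y, was found for 16 of 17 mitotic genes, 8 of 10 replication genes and 37.4% of all promoters. Both motifs together in 1 promoter were found for 13 of 17 mitotic genes, 1 of 10 replication genes and 6.95% of all promoters. An E2F site was searched as TTTCCCGC, TTTGGCGC, TTTCGCGC or TTTGCCGC. It was found for 4 of 10 replication genes (Mcm3, Mcm5, Mcm6 and Mcm7), 1 of 17 mitotic genes (Cdk1) and 2.26% of all promoters. A match is a description of the letters, not of binding. The 250 bases before the start of 3 mitotic genes and 2 replication genes are printed to show the contrast, 5′ to 3′ on the gene's own strand, with CHR and CCAAT in capitals for the mitotic genes and E2F sites in capitals for the replication genes. They lie at chr11:99024190-99024439 on the minus strand for Top2a, chr4:118437344-118437593 minus for Cdc20, chr9:70421555-70421804 minus for Ccnb2, chr8:75109259-75109508 plus for Mcm5 and chr1:128359706-128359955 minus for Mcm6.
Top2a: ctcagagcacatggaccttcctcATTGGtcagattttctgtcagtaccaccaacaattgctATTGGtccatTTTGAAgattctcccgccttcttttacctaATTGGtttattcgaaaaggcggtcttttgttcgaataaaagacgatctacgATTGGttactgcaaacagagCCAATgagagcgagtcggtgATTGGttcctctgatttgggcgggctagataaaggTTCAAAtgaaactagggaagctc
Cdc20: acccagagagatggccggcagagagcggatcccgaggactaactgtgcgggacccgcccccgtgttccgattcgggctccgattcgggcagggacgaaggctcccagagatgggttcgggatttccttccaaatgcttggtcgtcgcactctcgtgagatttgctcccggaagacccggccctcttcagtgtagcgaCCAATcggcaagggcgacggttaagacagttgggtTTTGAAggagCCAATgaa
Ccnb2: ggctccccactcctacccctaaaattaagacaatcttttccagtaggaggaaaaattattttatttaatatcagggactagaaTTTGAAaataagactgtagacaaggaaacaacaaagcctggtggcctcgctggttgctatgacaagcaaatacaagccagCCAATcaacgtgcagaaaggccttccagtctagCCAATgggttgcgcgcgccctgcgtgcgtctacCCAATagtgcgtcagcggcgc
Mcm5: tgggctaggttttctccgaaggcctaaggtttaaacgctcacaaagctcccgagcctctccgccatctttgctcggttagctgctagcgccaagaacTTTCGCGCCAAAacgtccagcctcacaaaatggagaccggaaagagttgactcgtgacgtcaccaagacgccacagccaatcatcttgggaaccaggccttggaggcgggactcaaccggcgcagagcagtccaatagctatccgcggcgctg
Mcm6: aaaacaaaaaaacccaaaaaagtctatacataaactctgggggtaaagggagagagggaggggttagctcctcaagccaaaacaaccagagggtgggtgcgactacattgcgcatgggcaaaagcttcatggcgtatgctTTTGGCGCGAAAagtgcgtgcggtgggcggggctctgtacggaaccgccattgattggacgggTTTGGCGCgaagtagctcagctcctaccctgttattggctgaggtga

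The libraries held between 11754 and 20368 barcodes and between 63889853 and 127772838 UMIs (counted molecules), and 10556 to 16856 cells per library were kept. In the intestine the NPs library lost 46.5% of its barcodes to the limit of 20% mitochondrial UMIs, against 16.7% in the untreated library, and its kept cells were deeper, with a median of 6277 UMIs against 2464. Pairs of libraries shared 35 to 104 barcodes. Clusters made without the genes of the cycle were named from marker lists, so a name stands for cells like that type, and 7 of 39 intestinal and 2 of 30 brain clusters stayed unnamed. Most absorptive, goblet, microglial and astrocyte clusters held cells of mainly 1 library. Cells named crypt stem-like epithelium lay almost only in the NPs library and germinal centre B cells almost only in the untreated one, so neither can be compared between them. The near absence of the crypt name does not show that the untreated library lacked dividing epithelium. Cluster 27, with 1199 untreated cells, stayed unnamed because under 3 markers of any class were raised. It had 1 of 10 crypt markers raised and also 1 goblet marker.

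The share of dividing cells was highest in 3 named classes. A cell was called mitotic-gene positive when at least 2 of the 19 mitotic genes had a UMI after its counts were thinned to 1000 UMIs, with shallower cells left out. In the untreated intestine 467 of 910 germinal centre B cells were positive, a share of 51.3% (48.0% to 54.6%). In the NPs intestine 457 of 1202 crypt stem-like cells were positive, or 38.0% (35.3% to 40.8%). Neuroblasts or neural progenitors were positive in 69 of 191 cells of the NPs brain, 36.1% (29.3% to 43.4%), and in 96 of 246 cells of the untreated brain, 39.0% (32.9% to 45.4%). These 3 classes stood above every other named class with at least 50 cells, but they did not hold most of the positive intestinal cells. Of 1248 positive cells in the NPs intestine, crypt stem-like epithelium held 36.6%, goblet cells 30.0% and absorptive epithelium 24.7%. Of 2268 positive cells in the untreated intestine, the unnamed clusters held 755 (33.3%), of which 298 lay in cluster 27, while germinal centre B cells held 20.6% and T cells 16.5%.

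**Figure D1:**
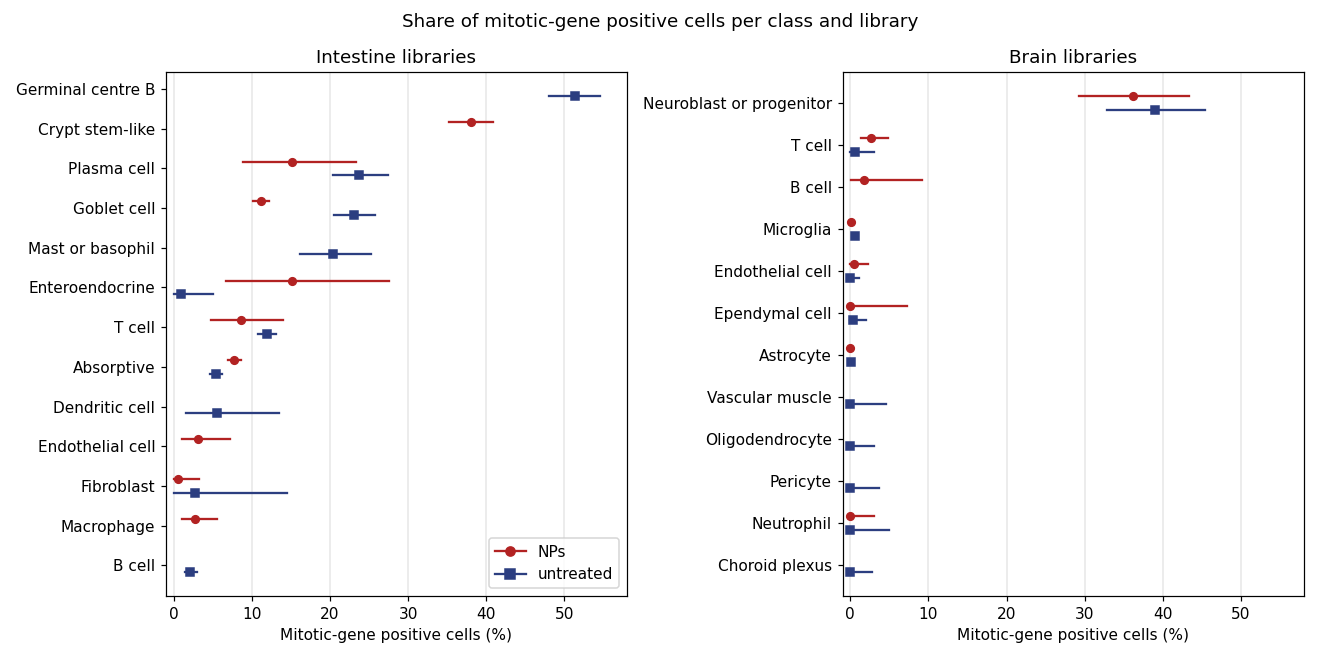
Share of mitotic-gene positive cells (x axis, percent of cells thinned to 1000 UMIs) for each class with at least 50 cells (y axis), intestine on the left and brain on the right. Red circles are NPs libraries and blue squares untreated libraries, with exact binomial 95% intervals. Germinal centre B cells at 51.3%, crypt stem-like epithelium at 38.0% and neuroblasts or progenitors at 36.1% (NPs) and 39.0% (untreated) lie to the right of all other classes.

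Among the other intestinal classes the share ran from that of resting cells up to 23.7%. Goblet cells, which secrete mucus, were positive in 374 of 3362 cells of the NPs library, 11.1% (10.1% to 12.2%), and in 232 of 1006 cells of the untreated library, 23.1% (20.5% to 25.8%). Absorptive epithelium was positive in 308 of 3986 cells of the NPs library, 7.73% (6.92% to 8.60%), and in 191 of 3571 cells of the untreated library, 5.35% (4.63% to 6.14%). Plasma cells were positive in 16 of 106 cells of the NPs library, 15.1%, and in 137 of 577 cells of the untreated library, 23.7%. Mature goblet and plasma cells are known as non-dividing. The shares of these classes lay well above those of B cells outside the germinal centre class and enteroendocrine cells of the untreated library. T cells were positive in 14 of 163 cells of the NPs library, 8.59% (4.78% to 14.0%), and in 375 of 3155 cells of the untreated library, 11.9% (10.8% to 13.1%). Mast cells or basophils of the untreated library were positive in 66 of 323 cells, 20.4%, but their Epcam level, a marker of epithelium, stood at 1148 CPM (counts per 1000000 UMIs of the class), and what part this has was not tested.

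Most of the remaining intestinal classes had low shares. The planned comparison from non-dividing classes was enteroendocrine, tuft and plasma cells, and no cluster was named tuft. Plasma cells (15.1% NPs, 23.7% untreated) and enteroendocrine cells of the NPs library (15.1%) were in or near the range of goblet and T cells. Of the planned classes only enteroendocrine cells of the untreated library were low, so the planned comparison gives no uniformly low background. Free RNA was not measured here. Other B cells of the untreated intestine were positive in 33 of 1564 cells, 2.11% (1.46% to 2.95%), at a median of 2092 UMIs. Enteroendocrine cells, which release gut hormones, were positive in 8 of 53 cells of the NPs library, 15.1% (6.75% to 27.6%), and in 1 of 108 cells of the untreated library, 0.926%. Of those 8 cells 6 had exactly 2 mitotic genes. Over all cells of the class the median depth was 7257 UMIs in the NPs library against 1163 in the untreated library. The summed level of absorptive markers in the class was 8737 CPM against 1404. Macrophages or monocytes of the NPs library were at 2.70%, endothelial cells of the NPs library at 3.14% and dendritic cells of the untreated library at 5.48%. Fibroblasts were positive in 1 of 173 cells of the NPs library, 0.578%, and in 1 of 36 cells of the untreated library, 2.78%. The unnamed clusters together had 18.5% in the NPs library and 26.2% in the untreated library, and 3 of the untreated ones exceeded 30% (clusters 20, 29 and 38). Cluster 27 of the untreated library was positive in 298 of 1149 cells, 25.9%. Over all cells of cluster 27 Epcam stood at 2272 CPM, and in its untreated cells Mki67 stood at 174 CPM and Top2a at 194 CPM. Whether these are crypt cells was not tested.

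In the brain most positive cells were neuroblasts or progenitors. The class made up 1.64% of the cells used from the NPs library and 2.24% of those from the untreated library, but 69 of 92 positive cells (75.0%) and 96 of 131 positive cells (73.3%). Of the rest, T cells held 11 and microglia 7 in the NPs library, and microglia held 31 in the untreated one. Microglia, the resident macrophages of the brain, were positive in 7 of 6419 cells of the NPs library, 0.109% (0.0439% to 0.225%), and in 31 of 5242 cells of the untreated library, 0.591% (0.402% to 0.838%). T cells of the brain were positive in 11 of 407 cells of the NPs library, 2.70% (1.36% to 4.78%), and in 1 of 179 cells of the untreated library, 0.559% (0.0141% to 3.07%). B cells of the NPs brain were positive in 1 of 58 cells, 1.72% (0.0436% to 9.24%), and in 3 without thinning. Their levels below thus come from a class with few positive cells. No astrocyte of 3908 was positive in the NPs library, which allows a share of up to 0.0768% (3 cells of the total, as for each count of 0 here), and 2 of 3972 were in the untreated library, 0.0504%. Ependymal cells were positive in 0 of 49 cells of the NPs library, which allows up to 6.12%, and in 1 of 271 cells of the untreated library. Brain endothelial cells were positive in 1 of 241 cells of the NPs library, 0.415%, and in 0 of 336 of the untreated library, which allows up to 0.893%. Neutrophils had no positive cell in either library, and choroid plexus epithelium (131 cells), oligodendrocytes (122 cells), pericytes and vascular smooth muscle had none in the untreated library.

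Replication genes gave the same leading classes with lower shares. With at least 2 of the 12 replication genes as the rule, 35.5% of germinal centre B cells and 18.1% of crypt stem-like cells were positive. Among neuroblasts or progenitors 33.5% were replication-gene positive in the NPs library and 36.6% in the untreated library. Cells positive for both groups of genes numbered 193 of 910 germinal centre B cells, 115 of 1202 crypt stem-like cells, 41 of 191 progenitors of the NPs brain and 53 of 246 of the untreated brain. Both counts rest on a range of levels rather than on a type of cell. Among crypt stem-like cells 128 had exactly 2 mitotic genes and 231 had 1, while among germinal centre B cells 103 had 2 and 167 had 1. Progenitors were more clearly split, with 15 cells at 2 genes and 14 at 1 in the NPs library, and 9 at 2 and 24 at 1 in the untreated library. Without thinning, the shares were 74.9% for germinal centre B cells, 67.2% for crypt stem-like cells, and 46.6% (NPs) and 54.9% (untreated) for progenitors. The unthinned share of goblet cells was 33.9% in the NPs library and 42.2% in the untreated one, and that of absorptive epithelium 31.3% and 17.2%.

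The level of each gene, as CPM of the summed cells of a class, put the same 3 classes first. These are counts of 3′ tags, 1 per molecule, so gene length does not enter. Where a gene had no UMI in a class, the bracket gives the level that 3 counts would make. Of the 40 genes, 33 had their highest level of the NPs intestine in crypt stem-like epithelium and 34 had their highest level of the untreated intestine in germinal centre B cells. In both brain libraries 36 of 40 were highest in neuroblasts or progenitors. The share of all genes that peak in these classes was not counted, so these counts describe the members only. All 19 mitotic genes were highest in these classes in each library, as were 11, 11, 12 and 12 of the 12 replication genes. The exceptions were Rrm2, a subunit of the enzyme that makes deoxynucleotides, at 66.7 CPM in T cells of the NPs intestine against 61.0 CPM in crypt stem-like epithelium, and Ccne1, cyclin E1, at 15.3 CPM from 4 UMIs in fibroblasts of the untreated intestine against 13.9 CPM in germinal centre B cells.

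**Figure D2:**
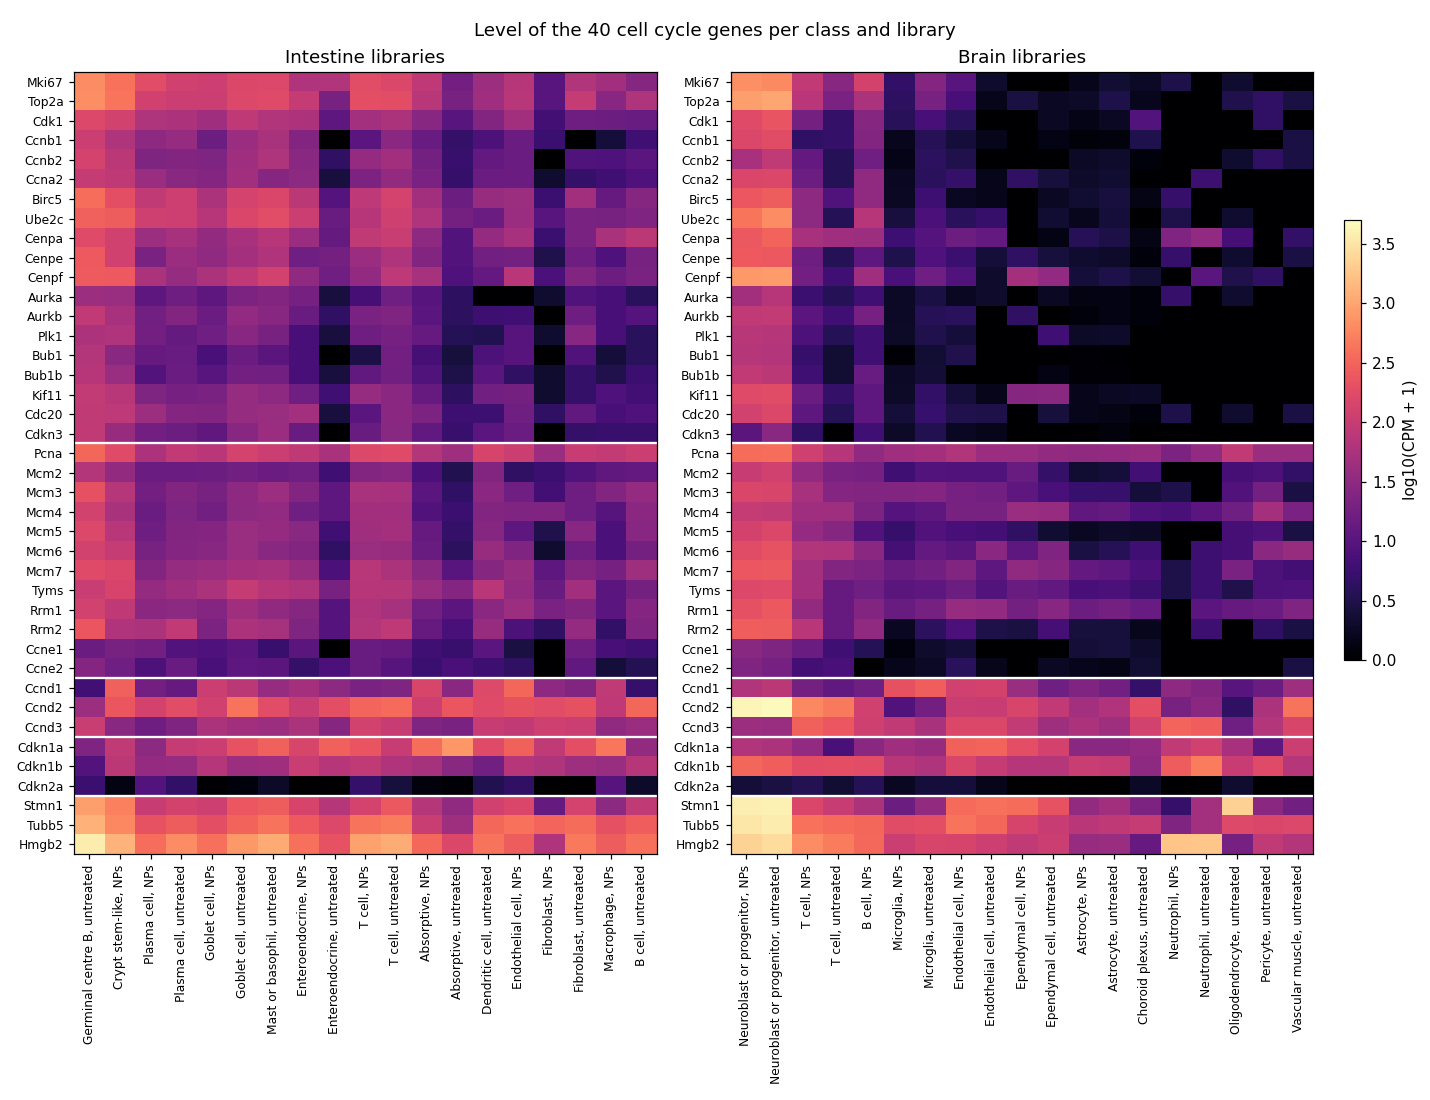
Level of all 40 genes (y axis, grouped by role) in each class and library (x axis), intestine and brain in separate panels, as log10(CPM + 1) in colour. Within each class the NPs column stands left of the untreated column. The mitotic rows are brightest in crypt stem-like epithelium, germinal centre B cells and neuroblasts or progenitors, and the D-type cyclin and inhibitor rows are bright in other classes.

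Mki67 encodes Ki-67, a coat of the mitotic chromosome used as the standard marker of dividing cells. Mki67 in the NPs intestinal library stood at 406 CPM (394 to 417) in crypt stem-like epithelium, 183 CPM in T cells, 179 CPM in plasma cells, 113 CPM in goblet cells, 84.6 CPM in absorptive epithelium, 69.3 CPM in endothelial cells, 61.0 CPM in enteroendocrine cells, 45.8 CPM in macrophages or monocytes and 9.001 CPM in fibroblasts. Mki67 in the untreated intestinal library stood at 642 CPM (623 to 661) in germinal centre B cells, 159.7 CPM in mast cells or basophils, 156 CPM in goblet cells, 153 CPM in T cells, 121 CPM in plasma cells, 65.1 CPM in fibroblasts, 63.3 CPM in enteroendocrine cells, 42.0 CPM in dendritic cells, 25.5 CPM in other B cells and 16.8 CPM in absorptive epithelium. Germinal centre B cells and crypt stem-like epithelium led, and the immune and secretory classes followed at less than their level. Mki67 in the NPs brain library stood at 694 CPM (659 to 730.4) in neuroblasts or progenitors, 129 CPM in B cells, 91.4 CPM in T cells, 9.08 CPM in endothelial cells, 3.77 CPM in microglia, 2.04 CPM in neutrophils and 0.524 CPM in astrocytes. Mki67 had no UMI there in ependymal cells (up to 5.17 CPM). The B cell level came with 1 of 58 cells positive. Mki67 in the untreated brain library stood at 629 CPM (601 to 659) in neuroblasts or progenitors, 26.8 CPM in T cells, 24.5 CPM in microglia, 1.27 CPM in astrocytes, 1.13 CPM in oligodendrocytes, 1.02 CPM in endothelial cells and 0.846 CPM in choroid plexus epithelium. Mki67 had no UMI there in neutrophils (up to 14.0 CPM), ependymal cells (up to 1.18 CPM), pericytes (up to 10.5 CPM) and vascular smooth muscle cells (up to 5.49 CPM). Progenitors stood at close to the level of germinal centre B cells, and microglia stood lower in the NPs library than in the untreated one.

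Top2a, the topoisomerase that untangles chromosomes before they part, had the same leading classes as Mki67. Top2a in the NPs intestinal library stood at 436 CPM (424 to 448) in crypt stem-like epithelium, 194 CPM in T cells, 123 CPM in plasma cells, 108 CPM in goblet cells, 96.5 CPM in enteroendocrine cells, 74.6 CPM in absorptive epithelium, 74.5 CPM in endothelial cells, 26.6 CPM in macrophages or monocytes and 9.001 CPM in fibroblasts. Top2a in the untreated intestinal library stood at 668 CPM (649 to 688) in germinal centre B cells, 188 CPM in T cells, 171 CPM in mast cells or basophils, 162 CPM in goblet cells, 105 CPM in plasma cells, 95.7 CPM in fibroblasts, 59.9 CPM in other B cells, 44.3 CPM in dendritic cells, 18.9 CPM in absorptive epithelium and 18.8 CPM in enteroendocrine cells. T cells came after the leading class in both intestinal libraries. Top2a in the NPs brain library stood at 896 CPM (856 to 938) in neuroblasts or progenitors, 75.2 CPM in T cells, 56.7 CPM in B cells, 6.05 CPM in endothelial cells, 3.29 CPM in microglia, 1.72 CPM in ependymal cells and 0.943 CPM in astrocytes. Top2a had no UMI there in neutrophils (up to 6.13 CPM). Top2a in the untreated brain library stood at 1020.1 CPM (984 to 1058) in neuroblasts or progenitors, 19.2 CPM in T cells, 18.6 CPM in microglia, 3.50 CPM in pericytes, 2.27 CPM in oligodendrocytes, 2.00 CPM in astrocytes, 1.83 CPM in vascular smooth muscle cells, 0.784 CPM in ependymal cells, 0.635 CPM in choroid plexus epithelium and 0.508 CPM in endothelial cells. Top2a had no UMI there in neutrophils (up to 14.0 CPM). The progenitor levels were the highest of Top2a in any named class of the 4 libraries.

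Cdk1, the kinase that drives entry into mitosis, was measured at lower levels than Top2a in every dividing class. Cdk1 in the NPs intestinal library stood at 126 CPM (119.5 to 132) in crypt stem-like epithelium, 59.7 CPM in plasma cells, 57.1 CPM in enteroendocrine cells, 47.7 CPM in T cells, 45.0 CPM in endothelial cells, 43.8 CPM in goblet cells, 26.5 CPM in absorptive epithelium, 14.8 CPM in macrophages or monocytes and 5.63 CPM in fibroblasts. Cdk1 in the untreated intestinal library stood at 158 CPM (149 to 168) in germinal centre B cells, 85.4 CPM in goblet cells, 63.9 CPM in mast cells or basophils, 58.7 CPM in plasma cells, 56.0 CPM in T cells, 23.3 CPM in dendritic cells, 15.3 CPM in fibroblasts, 12.9 CPM in other B cells, 10.3 CPM in enteroendocrine cells and 9.26 CPM in absorptive epithelium. Goblet cells of the untreated library stood next after germinal centre B cells. Cdk1 in the NPs brain library stood at 172 CPM (155 to 191) in neuroblasts or progenitors, 25.8 CPM in B cells, 17.2 CPM in T cells, 3.03 CPM in endothelial cells, 2.87 CPM in microglia and 0.471 CPM in astrocytes. Cdk1 had no UMI there in ependymal cells (up to 5.17 CPM) and neutrophils (up to 6.13 CPM). Cdk1 in the untreated brain library stood at 224 CPM (207 to 241) in neuroblasts or progenitors, 8.04 CPM in choroid plexus epithelium, 6.09 CPM in microglia, 3.83 CPM in T cells, 3.50 CPM in pericytes, 0.819 CPM in astrocytes and 0.784 CPM in ependymal cells. Cdk1 had no UMI there in endothelial cells (up to 1.52 CPM), neutrophils (up to 14.0 CPM), oligodendrocytes (up to 3.40 CPM) and vascular smooth muscle cells (up to 5.49 CPM). Outside progenitors, B cells and T cells, Cdk1 in the brain stayed below 10 CPM.

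The other 16 mitotic genes were also highest, within each library, in the leading class, and differed in which of these classes had most. Cenpf, a kinetochore protein, stood at 253 CPM in crypt stem-like epithelium, 265 CPM in germinal centre B cells, and 806 CPM (NPs) and 848 CPM (untreated) in progenitors. Ube2c, the enzyme that marks cyclin B for destruction, stood at 275 CPM in crypt stem-like epithelium, 288 CPM in germinal centre B cells, and 434 CPM (NPs) and 653 CPM (untreated) in progenitors. Birc5, survivin of the chromosomal passenger complex, was instead highest in germinal centre B cells at 376 CPM, against 237 CPM (NPs) and 268 CPM (untreated) in progenitors. Cdkn3, a phosphatase that removes the activating phosphate from the cyclin kinases, also led in germinal centre B cells at 88.8 CPM, against 9.98 CPM (NPs) and 27.1 CPM (untreated) in progenitors. In these 3 classes the remaining mitotic genes, which include cyclins A2, B1 and B2, the Aurora kinases, Plk1, the mitotic exit activator Cdc20, the checkpoint kinases Bub1 and Bub1b, the motor Kif11 and the kinetochore proteins Cenpa and Cenpe, lay between 27.5 CPM (Bub1 in crypt stem-like epithelium) and 314 CPM (Cenpa in progenitors of the untreated brain). The 19 genes summed to 2566 CPM in crypt stem-like epithelium, 3751 CPM in germinal centre B cells, and 4765 CPM (NPs) and 5349 CPM (untreated) in progenitors, and to 13.9 CPM (NPs) and 17.9 CPM (untreated) in astrocytes. Ependymal cells had Kif11 at 25.8 CPM (NPs) and 27.0 CPM (untreated) and Cenpf at 48.2 CPM (NPs) and 32.5 CPM (untreated), with Mki67 at 0 UMIs in both libraries.

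Pcna, the sliding clamp of the replication fork, was less restricted than the mitotic genes. Pcna in the NPs intestinal library stood at 172 CPM (165 to 179.6) in crypt stem-like epithelium, 160.2 CPM in T cells, 107 CPM in endothelial cells, 91.6 CPM in macrophages or monocytes, 84.7 CPM in enteroendocrine cells, 76.1 CPM in goblet cells, 66.8 CPM in absorptive epithelium, 58.8 CPM in plasma cells and 39.4 CPM in fibroblasts. Pcna in the untreated intestinal library stood at 334 CPM (320.3 to 348) in germinal centre B cells, 168 CPM in T cells, 139.8 CPM in dendritic cells, 135 CPM in goblet cells, 107 CPM in other B cells, 106 CPM in mast cells or basophils, 99.6 CPM in fibroblasts, 90.0 CPM in plasma cells, 54.7 CPM in enteroendocrine cells and 42.7 CPM in absorptive epithelium. T cells of the NPs library were close to crypt stem-like epithelium. Pcna in the NPs brain library stood at 371 CPM (345 to 398) in neuroblasts or progenitors, 118 CPM in T cells, 65.1 CPM in endothelial cells, 44.8 CPM in microglia, 37.9 CPM in ependymal cells, 31.2 CPM in astrocytes, 30.9 CPM in B cells and 20.4 CPM in neutrophils. Pcna in the untreated brain library stood at 382 CPM (359.8 to 405) in neuroblasts or progenitors, 86.2 CPM in oligodendrocytes, 70.3 CPM in T cells, 48.7 CPM in microglia, 39.6 CPM in endothelial cells, 38.5 CPM in pericytes, 38.5 CPM in vascular smooth muscle cells, 36.6 CPM in choroid plexus epithelium, 33.3 CPM in ependymal cells, 32.8 CPM in neutrophils and 32.5 CPM in astrocytes. Every brain class with at least 50 cells had a Pcna level above 20 CPM, including the classes with no positive cell.

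The 11 other replication genes are the 6 subunits of the MCM helicase, Tyms and the ribonucleotide reductase subunits Rrm1 and Rrm2, which make DNA precursors, and the E-type cyclins Ccne1 and Ccne2. Rrm2 stood at 61.0 CPM in crypt stem-like epithelium, 230.0 CPM in germinal centre B cells, and 278 CPM (NPs) and 271 CPM (untreated) in progenitors. Mcm3 stood at 69.1 CPM in crypt stem-like epithelium, 202 CPM in germinal centre B cells, and 147 CPM (NPs) and 145 CPM (untreated) in progenitors. Tyms stood at 141 CPM in crypt stem-like epithelium, 103 CPM in germinal centre B cells, and 158 CPM (NPs) and 168 CPM (untreated) in progenitors. The E-type cyclins were the lowest of the group, with Ccne1 at 18.4 CPM and Ccne2 at 15.7 CPM in crypt stem-like epithelium, and no value above 27.6 CPM in these 3 classes. The 12 genes summed to 965 CPM in crypt stem-like epithelium, 1682 CPM in germinal centre B cells, and 1946 CPM (NPs) and 2073 CPM (untreated) in progenitors. In astrocytes they still summed to 86.4 CPM (NPs) and 92.7 CPM (untreated).

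The D-type cyclins, which couple outside signals to the cycle, did not follow the mitotic genes. Ccnd1, cyclin D1, was led by a different class in each intestinal library. Ccnd1 in the NPs intestinal library stood at 329 CPM (284 to 379) in endothelial cells, 288 CPM in crypt stem-like epithelium, 144 CPM in absorptive epithelium, 111 CPM in goblet cells, 86.4 CPM in macrophages or monocytes, 49.2 CPM in enteroendocrine cells, 30.4 CPM in fibroblasts, 19.1 CPM in T cells and 16.9 CPM in plasma cells. Ccnd1 in the untreated intestinal library stood at 163 CPM (127 to 206) in dendritic cells, 78.3 CPM in goblet cells, 36.4 CPM in mast cells or basophils, 29.1 CPM in enteroendocrine cells, 27.9 CPM in absorptive epithelium, 23.0 CPM in fibroblasts, 21.3 CPM in T cells, 12.5 CPM in plasma cells, 5.31 CPM in germinal centre B cells and 4.04 CPM in other B cells. Lymphocytes had little of it, germinal centre B cells among them. Ccnd1 in the NPs brain library stood at 210.2 CPM (205 to 215) in microglia, 120.3 CPM in endothelial cells, 64.6 CPM in neuroblasts or progenitors, 37.9 CPM in ependymal cells, 30.6 CPM in neutrophils, 22.4 CPM in astrocytes, 17.7 CPM in T cells and 15.5 CPM in B cells. Ccnd1 in the untreated brain library stood at 278 CPM (272 to 284) in microglia, 132 CPM in endothelial cells, 79.3 CPM in neuroblasts or progenitors, 42.1 CPM in vascular smooth muscle cells, 23.4 CPM in neutrophils, 16.3 CPM in astrocytes, 15.7 CPM in ependymal cells, 14.0 CPM in pericytes, 11.5 CPM in T cells, 9.08 CPM in oligodendrocytes and 3.81 CPM in choroid plexus epithelium. Microglia, of which under 1% were mitotic-gene positive, led Ccnd1 in both brain libraries.

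Ccnd2, cyclin D2, was the D-type cyclin of the neural progenitors. Ccnd2 in the NPs intestinal library stood at 316 CPM (270.2 to 368) in T cells, 231 CPM in crypt stem-like epithelium, 209.6 CPM in endothelial cells, 180.0 CPM in fibroblasts, 130.0 CPM in plasma cells, 120.4 CPM in goblet cells, 113 CPM in absorptive epithelium, 104 CPM in enteroendocrine cells and 82.7 CPM in macrophages or monocytes. Ccnd2 in the untreated intestinal library stood at 414 CPM (402 to 426) in goblet cells, 352 CPM in T cells, 336 CPM in other B cells, 227 CPM in absorptive epithelium, 207 CPM in fibroblasts, 193 CPM in enteroendocrine cells, 182 CPM in mast cells or basophils, 179 CPM in plasma cells, 168 CPM in dendritic cells and 41.9 CPM in germinal centre B cells. Germinal centre B cells had the lowest level of the untreated intestine and other B cells one of the highest. Ccnd2 in the NPs brain library stood at 4288 CPM (4200.2 to 4378) in neuroblasts or progenitors, 598 CPM in T cells, 145 CPM in ependymal cells, 121 CPM in B cells, 104 CPM in endothelial cells, 47.8 CPM in astrocytes, 18.4 CPM in neutrophils and 7.85 CPM in microglia. Ccnd2 in the untreated brain library stood at 4578 CPM (4501 to 4657) in neuroblasts or progenitors, 468 CPM in T cells, 414 CPM in vascular smooth muscle cells, 193 CPM in choroid plexus epithelium, 100.0 CPM in endothelial cells, 89.0 CPM in ependymal cells, 61.4 CPM in astrocytes, 55.9 CPM in pericytes, 28.1 CPM in neutrophils, 16.9 CPM in microglia and 3.40 CPM in oligodendrocytes. The progenitor levels lay far above all other classes, and microglia, which led Ccnd1, were at the low end.

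Ccnd3, cyclin D3, is known for its role in dividing lymphocytes, germinal centre B cells included. Ccnd3 in the NPs intestinal library stood at 124 CPM (95.6 to 158) in T cells, 119 CPM in fibroblasts, 90.1 CPM in endothelial cells, 55.3 CPM in goblet cells, 55.1 CPM in enteroendocrine cells, 31.0 CPM in macrophages or monocytes, 27.1 CPM in crypt stem-like epithelium, 21.8 CPM in absorptive epithelium and 15.1 CPM in plasma cells. Ccnd3 in the untreated intestinal library stood at 111 CPM (74.4 to 159) in fibroblasts, 101 CPM in germinal centre B cells, 101 CPM in T cells, 100.2 CPM in dendritic cells, 46.2 CPM in goblet cells, 41.7 CPM in mast cells or basophils, 39.4 CPM in other B cells, 25.7 CPM in enteroendocrine cells, 22.1 CPM in plasma cells and 19.9 CPM in absorptive epithelium. Germinal centre B cells had more Ccnd3 than other B cells, the opposite order to Ccnd2. Ccnd3 in the NPs brain library stood at 319 CPM (271 to 373) in neutrophils, 296 CPM in T cells, 154 CPM in endothelial cells, 116 CPM in B cells, 93.0 CPM in ependymal cells, 89.7 CPM in microglia, 57.7 CPM in astrocytes and 41.3 CPM in neuroblasts or progenitors. Ccnd3 in the untreated brain library stood at 285 CPM (218 to 367) in neutrophils, 240.2 CPM in T cells, 154 CPM in endothelial cells, 143 CPM in vascular smooth muscle cells, 125 CPM in choroid plexus epithelium, 66.4 CPM in pericytes, 54.1 CPM in microglia, 42.3 CPM in ependymal cells, 42.3 CPM in astrocytes, 39.2 CPM in neuroblasts or progenitors and 15.9 CPM in oligodendrocytes. Neutrophils, which had no positive cell, led Ccnd3 in the brain, and progenitors were near its low end.

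**Figure D3:**
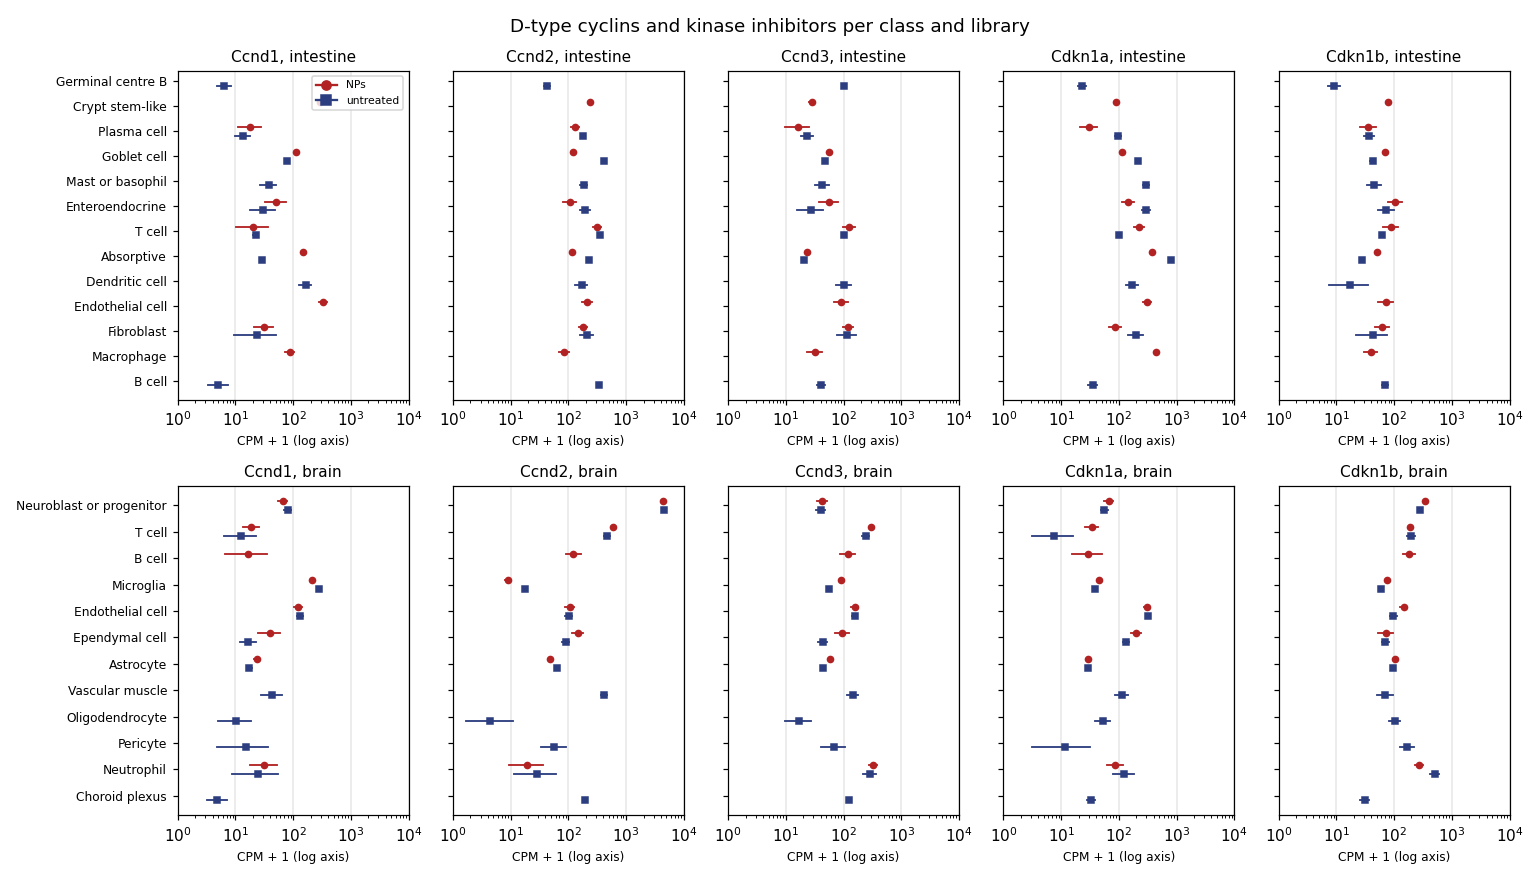
Level of Ccnd1, Ccnd2, Ccnd3, Cdkn1a and Cdkn1b (1 column of panels each, CPM + 1 on a log axis) per class (y axis), intestine above and brain below. Red circles are NPs libraries and blue squares untreated libraries, with exact Poisson 95% intervals. Ccnd2 stands at 4288 CPM (NPs) and 4578 CPM (untreated) in progenitors, and Cdkn1a peaks in absorptive epithelium of the untreated intestine at 800.0 CPM.

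Cdkn1a encodes p21, the kinase inhibitor that p53 induces. Cdkn1a in the NPs intestinal library stood at 441 CPM (406 to 478) in macrophages or monocytes, 381 CPM in absorptive epithelium, 305 CPM in endothelial cells, 223 CPM in T cells, 144 CPM in enteroendocrine cells, 111 CPM in goblet cells, 87.8 CPM in crypt stem-like epithelium, 85.5 CPM in fibroblasts and 29.4 CPM in plasma cells. Cdkn1a in the untreated intestinal library stood at 800.0 CPM (791 to 809) in absorptive epithelium, 294 CPM in enteroendocrine cells, 293 CPM in mast cells or basophils, 214 CPM in goblet cells, 195 CPM in fibroblasts, 170.2 CPM in dendritic cells, 98.2 CPM in T cells, 94.6 CPM in plasma cells, 34.1 CPM in other B cells and 22.3 CPM in germinal centre B cells. Mature absorptive epithelium stood above crypt stem-like epithelium, and germinal centre B cells had the lowest level of their library. Cdkn1a in the NPs brain library stood at 304 CPM (275 to 335) in endothelial cells, 196 CPM in ependymal cells, 85.8 CPM in neutrophils, 65.1 CPM in neuroblasts or progenitors, 44.2 CPM in microglia, 32.8 CPM in T cells, 28.3 CPM in B cells and 27.8 CPM in astrocytes. Cdkn1a in the untreated brain library stood at 314 CPM (289 to 339) in endothelial cells, 132 CPM in ependymal cells, 122 CPM in neutrophils, 112 CPM in vascular smooth muscle cells, 55.3 CPM in neuroblasts or progenitors, 52.2 CPM in oligodendrocytes, 37.7 CPM in microglia, 32.2 CPM in choroid plexus epithelium, 28.4 CPM in astrocytes, 10.5 CPM in pericytes and 6.39 CPM in T cells. Endothelial and ependymal cells led in both brain libraries.

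Cdkn1b encodes p27, an inhibitor kept high in many resting cells. Cdkn1b in the NPs intestinal library stood at 102 CPM (76.5 to 134) in enteroendocrine cells, 85.8 CPM in T cells, 78.6 CPM in crypt stem-like epithelium, 71.0 CPM in endothelial cells, 67.5 CPM in goblet cells, 60.8 CPM in fibroblasts, 50.3 CPM in absorptive epithelium, 38.4 CPM in macrophages or monocytes and 34.7 CPM in plasma cells. Cdkn1b in the untreated intestinal library stood at 71.8 CPM (51.8 to 97.1) in enteroendocrine cells, 68.5 CPM in other B cells, 61.2 CPM in T cells, 44.4 CPM in mast cells or basophils, 42.1 CPM in fibroblasts, 41.6 CPM in goblet cells, 35.6 CPM in plasma cells, 27.0 CPM in absorptive epithelium, 16.3 CPM in dendritic cells and 8.26 CPM in germinal centre B cells. Germinal centre B cells again stood lowest, below other B cells. Cdkn1b in the NPs brain library stood at 336 CPM (311 to 361) in neuroblasts or progenitors, 272 CPM in neutrophils, 189.8 CPM in T cells, 183 CPM in B cells, 146 CPM in endothelial cells, 103 CPM in astrocytes, 73.4 CPM in microglia and 70.6 CPM in ependymal cells. Cdkn1b in the untreated brain library stood at 501 CPM (410.3 to 605) in neutrophils, 284 CPM in neuroblasts or progenitors, 194 CPM in T cells, 168 CPM in pericytes, 101 CPM in oligodendrocytes, 95.4 CPM in endothelial cells, 94.9 CPM in astrocytes, 69.8 CPM in ependymal cells, 69.6 CPM in vascular smooth muscle cells, 59.3 CPM in microglia and 29.8 CPM in choroid plexus epithelium. Neuroblasts or progenitors had high Cdkn1b beside high mitotic genes. Cdkn2a, whose locus makes both p16 and p19ARF with a shared 3′ end so that tag counts cannot tell them apart, stood at no more than 8.86 CPM in any named class with at least 50 cells, in macrophages or monocytes of the NPs intestine.

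Stmn1, stathmin, takes microtubules apart and is used both by dividing cells and by growing neurites. Stmn1 in the NPs intestinal library stood at 528 CPM (515 to 541) in crypt stem-like epithelium, 147 CPM in endothelial cells, 139.8 CPM in enteroendocrine cells, 135 CPM in T cells, 114 CPM in goblet cells, 97.9 CPM in plasma cells, 69.0 CPM in absorptive epithelium, 29.5 CPM in macrophages or monocytes and 12.4 CPM in fibroblasts. Stmn1 in the untreated intestinal library stood at 906 CPM (884 to 929) in germinal centre B cells, 275 CPM in mast cells or basophils, 242 CPM in T cells, 237 CPM in goblet cells, 134 CPM in fibroblasts, 131 CPM in plasma cells, 121 CPM in dendritic cells, 87.9 CPM in other B cells, 68.4 CPM in enteroendocrine cells and 31.1 CPM in absorptive epithelium. The leading class of each intestinal library was that of the mitotic genes. Stmn1 in the NPs brain library stood at 3820.1 CPM (3737 to 3904) in neuroblasts or progenitors, 364 CPM in ependymal cells, 350.2 CPM in endothelial cells, 150.4 CPM in T cells, 56.7 CPM in B cells, 33.8 CPM in astrocytes, 14.7 CPM in microglia and 4.08 CPM in neutrophils. Stmn1 in the untreated brain library stood at 4007 CPM (3934 to 4080.3) in neuroblasts or progenitors, 2216 CPM in oligodendrocytes, 395 CPM in endothelial cells, 212 CPM in ependymal cells, 101 CPM in T cells, 46.8 CPM in neutrophils, 46.2 CPM in astrocytes, 33.7 CPM in microglia, 28.0 CPM in pericytes, 20.9 CPM in choroid plexus epithelium and 16.5 CPM in vascular smooth muscle cells. Oligodendrocytes of the untreated brain came next after progenitors with no positive cell among them.

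Tubb5, a beta tubulin, has close copies in the genome between which reads can be split, so its level is uncertain. Tubb5 in the NPs intestinal library stood at 600.2 CPM (586 to 614) in crypt stem-like epithelium, 423 CPM in T cells, 409 CPM in endothelial cells, 317 CPM in fibroblasts, 254 CPM in enteroendocrine cells, 216 CPM in plasma cells, 202 CPM in macrophages or monocytes, 194 CPM in goblet cells and 102 CPM in absorptive epithelium. Tubb5 in the untreated intestinal library stood at 1252 CPM (1226 to 1279) in germinal centre B cells, 497 CPM in T cells, 424 CPM in mast cells or basophils, 368 CPM in fibroblasts, 331 CPM in dendritic cells, 307 CPM in goblet cells, 284 CPM in other B cells, 270.2 CPM in plasma cells, 157 CPM in enteroendocrine cells and 42.2 CPM in absorptive epithelium. T cells came next after the leading class in both. Fibroblasts of the NPs library, low in mitotic genes at a sum of 64.1 CPM, stood above its goblet and plasma cells. Tubb5 in the NPs brain library stood at 3322 CPM (3245 to 3401) in neuroblasts or progenitors, 415 CPM in endothelial cells, 406 CPM in T cells, 329.8 CPM in B cells, 178 CPM in microglia, 141 CPM in ependymal cells, 77.1 CPM in astrocytes and 22.5 CPM in neutrophils. Tubb5 in the untreated brain library stood at 3673 CPM (3603 to 3743) in neuroblasts or progenitors, 359 CPM in T cells, 335 CPM in endothelial cells, 195 CPM in microglia, 163 CPM in oligodendrocytes, 159 CPM in vascular smooth muscle cells, 150.3 CPM in pericytes, 98.8 CPM in ependymal cells, 97.5 CPM in choroid plexus epithelium, 84.0 CPM in astrocytes and 46.8 CPM in neutrophils. Progenitors stood above all other brain classes.

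Hmgb2, a chromatin protein abundant in dividing and young cells, also has near-identical copies and carries the same limit. Hmgb2 in the NPs intestinal library stood at 1283 CPM (1263 to 1304) in crypt stem-like epithelium, 951 CPM in T cells, 392 CPM in enteroendocrine cells, 387 CPM in goblet cells, 378 CPM in plasma cells, 342 CPM in absorptive epithelium, 273 CPM in macrophages or monocytes, 272 CPM in endothelial cells and 63.0 CPM in fibroblasts. Hmgb2 in the untreated intestinal library stood at 3597 CPM (3552 to 3643) in germinal centre B cells, 1150.4 CPM in T cells, 1110.2 CPM in mast cells or basophils, 814 CPM in goblet cells, 656 CPM in plasma cells, 463 CPM in fibroblasts, 422 CPM in dendritic cells, 394 CPM in other B cells, 214 CPM in enteroendocrine cells and 156 CPM in absorptive epithelium. T cells came after the leading class in both intestinal libraries. Hmgb2 in the NPs brain library stood at 2316 CPM (2251 to 2382) in neuroblasts or progenitors, 1746 CPM in neutrophils, 657 CPM in T cells, 348 CPM in B cells, 141 CPM in endothelial cells, 110.1 CPM in microglia, 86.1 CPM in ependymal cells and 35.8 CPM in astrocytes. Hmgb2 in the untreated brain library stood at 2701 CPM (2642 to 2762) in neuroblasts or progenitors, 1820.1 CPM in neutrophils, 497 CPM in T cells, 146 CPM in microglia, 112 CPM in endothelial cells, 108 CPM in ependymal cells, 87.4 CPM in pericytes, 65.9 CPM in vascular smooth muscle cells, 38.2 CPM in astrocytes, 18.2 CPM in oligodendrocytes and 12.5 CPM in choroid plexus epithelium. Neutrophils held close to progenitor levels of Hmgb2 although their 19 mitotic genes summed to only 40.8 CPM (NPs) and 46.8 CPM (untreated).

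Within a class, the positive cells could be compared with the other cells for the genes that the call did not use. This was done without thinning in the 18 class and library pairs with at least 30 positive cells, and the positive cells were deeper, as in progenitors of the NPs brain with a median of 15801 against 5772 UMIs, so the ratios of CPM are a description. Hmgb2 had a ratio above 1 in 17 of 18 pairs, with a median of 4.28. Rrm2 was above 1 in 16 of 18 pairs, with a median ratio of 11.5. Stmn1 was above 1 in 16 of 18 (median ratio 5.29), Tubb5 in 17 of 18 (3.75) and Pcna in 17 of 18 (2.26). The D-type cyclins and inhibitors went either way, with median ratios of 1.19 for Ccnd1, 1.09 for Ccnd2, 1.11 for Ccnd3, 0.981 for Cdkn1a and 1.04 for Cdkn1b. The ratio of Cdkn1a ran from 0.529 to 9.76, with 7 intervals above 1 and 6 below. That of Ccnd1 ran from 0.494 to 4.46, with 9 intervals above 1 and 1 below. Ccnd2 had 7 above and 4 below. Cdkn2a, on at most 31 UMIs in the positive cells of a pair, had 5 intervals above 1 and 0 below.

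**Figure D4:**
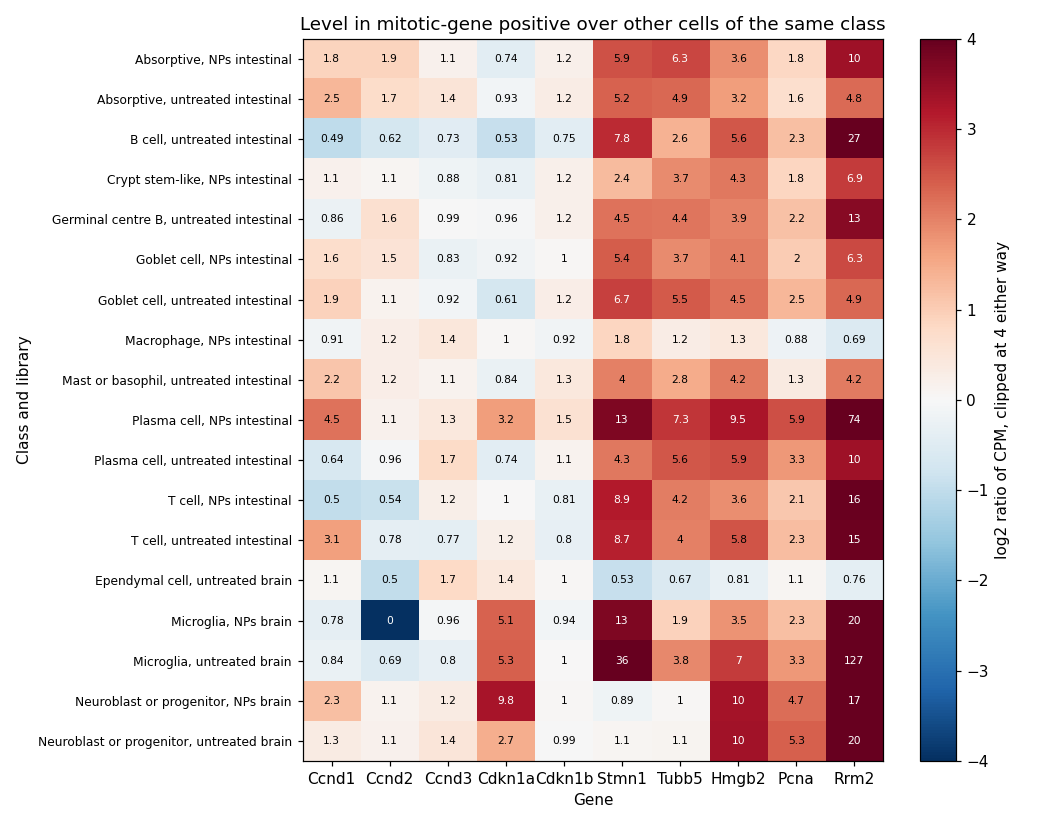
Ratio of the CPM level in mitotic-gene positive cells over that in other cells of the same class and library (colour, log2, clipped at 4 either way) for 10 genes the call did not use (x axis) and 18 pairs of class and library (y axis). A cell with 0 had no UMI of the gene in positive cells. Hmgb2 and Rrm2 are raised in nearly all pairs, and the D-type cyclins and inhibitors go either way, with Cdkn1a at a ratio of 9.76 in progenitors of the NPs brain.

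Progenitors showed 2 patterns. The second, for Cdkn1a, was not theirs alone, as 7 of the 18 pairs had an interval above 1, those of microglia among them, and 6 had an interval below 1. Hmgb2 was 10.0-fold higher (8.72 to 11.6) in positive cells of the NPs brain and 10.3-fold higher (8.95 to 11.8) in those of the untreated brain, but Stmn1 was nearly equal, at ratios of 0.895 (0.854 to 0.938) and 1.05 (1.01 to 1.10), and so was Tubb5 at 1.04 and 1.09. Ccnd2 too was nearly equal, at 1.09 (1.04 to 1.14) in the NPs brain and 1.12 (1.07 to 1.16) in the untreated brain. The median ratio of Ccnd2 over the 18 pairs was also 1.09. Both the dividing and the other cells of this class thus held high Ccnd2, Stmn1 and Tubb5. Cdkn1a stood at 90.1 CPM in positive against 9.23 CPM in other cells of the NPs brain, a ratio of 9.76 (4.37 to 27.1), and at 64.2 against 23.5 CPM in the untreated brain, a ratio of 2.73 (1.60 to 5.00). The transcript of p21 was thus higher in the cells that carried mitotic transcripts, and its protein was not measured.

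Microglia showed the same for Cdkn1a. It stood at 219 CPM in the 33 positive cells against 43.0 CPM in the others of the NPs brain, a ratio of 5.09 (3.77 to 6.73), and at 183 CPM in the 74 positive cells against 34.6 CPM in the others of the untreated brain, a ratio of 5.29 (4.30 to 6.46). Rrm2 had 3 of its 24 UMIs in positive microglia of the NPs brain and 65 of its 89 UMIs in those of the untreated brain. Ccnd1, high in microglia as a whole, was no higher in positive cells, at ratios of 0.775 (0.548 to 1.07) for NPs and 0.839 (0.704 to 0.992) for untreated. In germinal centre B cells and crypt stem-like epithelium Cdkn1a was near equal, at ratios of 0.960 (0.591 to 1.64) and 0.811 (0.700 to 0.944), while Rrm2 was 12.5-fold and 6.94-fold higher in positive cells.

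The other genes of mitosis, a list of 58 that the call did not use, moved with the positive cells. At least 2-fold higher were 58 of 58 measured in progenitors of the NPs brain, where 9.29% of all genes were, and 57 of 57 in those of the untreated brain, where 8.48% were. The counts were 57 of 58 in crypt stem-like epithelium (3.98% of all genes), 50 of 53 in germinal centre B cells (6.5%), 7 of 9 in microglia of the NPs brain (2.7%) and 53 of 54 in those of the untreated brain (6.67%). Ependymal cells of the untreated brain, with 34 positive cells, had 1 of 11 higher (1.07%), and macrophages or monocytes of the NPs intestine, with 56, had 1 of 9 higher (1.87%). In these 2 classes Rrm2 was not raised either, at ratios of 0.762 and 0.687, and the call there does not pick out cells with the other mitotic transcripts. Of the 16 p53 target genes 9 were measured in progenitors of the NPs brain, with 0 at least 2-fold higher and 2 lower. There 9.29% of all genes were higher and 8.68% lower. In the untreated brain 8 were measured, with 1 higher and 2 lower, where 8.48% of all genes were higher and 7.10% lower. Counts this small do not set the list apart from all genes.

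Set against the untreated brain, NPs progenitors differed little in these genes. The share of positive cells differed by -2.90 points (-12.2 to 6.60), an interval that holds 0. Of 39 genes measured, 0 were at least 2-fold higher and 1 lower in NPs, against 1.23% of all 11559 genes higher and 1.84% lower. That gene was Cdkn3, at 9.98 CPM in NPs against 27.1 CPM in untreated, 2.72-fold lower (1.66 to 4.63). The median log2 ratio was -0.09 over the 39 and 0.02 over all genes. Top2a was 1.14-fold lower (1.07 to 1.21) and Mki67 1.10-fold higher (1.03 to 1.18) in NPs. Of the other genes of mitosis and replication, 0 of 58 and 0 of 54 differed 2-fold, and the progenitor markers summed to 10248 CPM in NPs against 9405 CPM in untreated.

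Microglia held fewer mitotic transcripts in the NPs brain. The share of positive cells was 0.482 points lower in NPs (-0.738 to -0.261). Of the 40 genes, all measured, 23 were at least 2-fold lower and 0 higher, where 4.66% of all 16627 genes were lower and 1.87% higher, and the median log2 ratio was -1.10 against 0.003 over all genes. By role these were 17 of 19 mitotic genes and 3 of 12 replication genes (Mcm6, Rrm2 and Ccne1), with Ccnd2, Cdkn2a and Stmn1. Mki67 had 125 UMIs in NPs against 697 in untreated, 3.77 against 24.5 CPM, which is 6.50-fold lower (5.37 to 7.93). Bub1 had 3 UMIs in NPs against 36 in untreated, 14.0-fold lower (4.42 to 71.0), and Ccnb2 was 6.41-fold lower (3.74 to 11.7) and Birc5 6.09-fold lower (4.01 to 9.57).

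The fork and helicase genes of microglia were nearer to equal. Pcna stood at 44.8 CPM in NPs against 48.7 CPM in untreated, 1.09-fold lower, and Mcm3 at 23.3 against 24.7 CPM, while Rrm2 stood at 0.724 against 3.13 CPM, 4.33-fold lower. Ccnd1 was 1.32-fold lower in NPs and Ccnd3 1.66-fold higher. Of the other genes of mitosis 32 of 57 measured were 2-fold lower, led by Ttk, Hmmr and Pimreg at 7.26-fold, 7.22-fold and 6.80-fold, and of the other replication genes 8 of 53, among them Uhrf1 and Dtl. Chek1 and Ccnf, among the other regulators, were 2.67-fold and 2.60-fold lower, and Phlda3, a p53 target, was 3.06-fold lower. These levels are sums over 6530 microglia of the NPs library and 5366 of the untreated one, of which 7 and 31 were positive after thinning. Most microglial clusters were mainly of 1 library. Shares were 0 to 0.218% in the NPs cells of clusters 7, 9, 10 and 12, and 0.313% to 1.14% in the untreated cells of clusters 5, 6, 8 and 24. Cluster 11 held both in like number, and there 0 of 642 NPs cells and 1 of 613 untreated cells were positive. Without thinning the share in cluster 11 was higher in NPs, at 1.39% against 0.813%. What part the separation of the libraries has in the difference was not tested. The microglial markers summed to 31966 CPM in NPs and 31268 CPM in untreated.

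**Figure D5:**
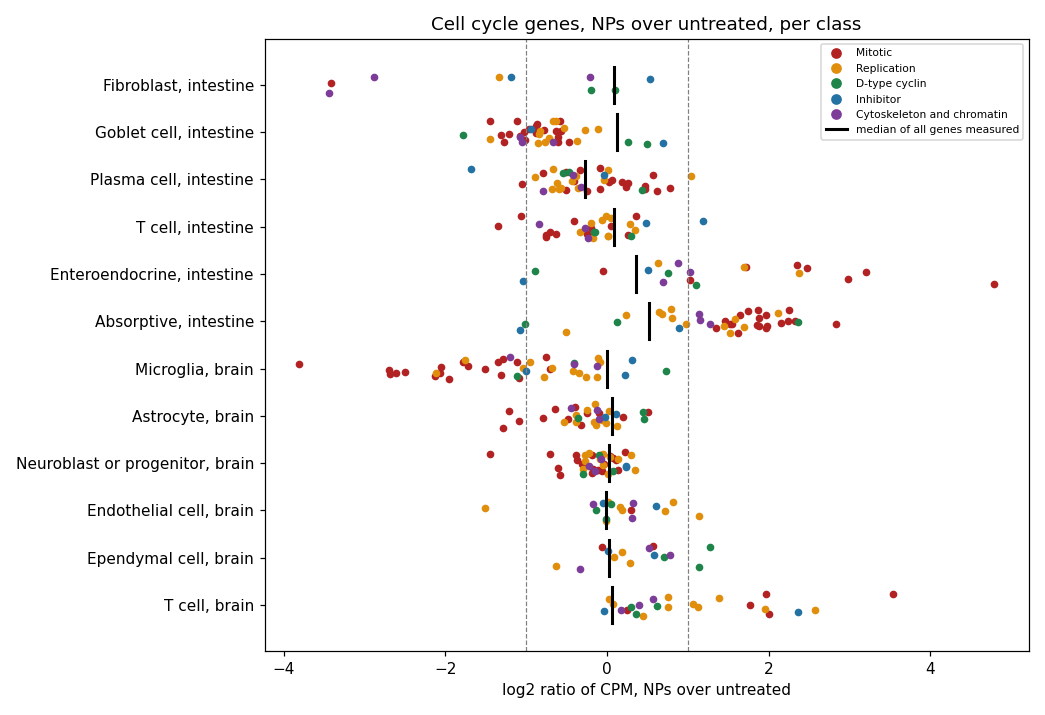
log2 ratio of CPM, NPs over untreated (x axis), for each measured gene (points) in each compared class (y axis). The absorptive points lie mostly to the right of 0 (28 of 39 at least 2-fold higher) and the microglial points to the left (23 of 40 at least 2-fold lower), while progenitor points lie close to 0.

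Brain T cells ran the other way, on few cells. The share of positive cells was 2.14 points higher in NPs (-0.708 to 4.30), an interval that holds 0. Of 23 genes measured 10 were higher and 0 lower, where 3.84% of all 7604 genes were higher and 1.6% lower. A gene can be measured here through its level in the NPs library alone, so this count leans to higher genes. Of the 19 mitotic genes only 5 were measured, with 4 of them higher. The count of higher genes ran from 0 to 18 over 14 alternatives, with 0 at 50 expected UMIs. Ube2c had 59 UMIs in NPs against 2 in untreated, a ratio of 11.7 (3.09 to 98.5). Rrm2 stood at 76.2 CPM in NPs against 12.8 CPM in untreated, a ratio of 5.97 (3.16 to 12.7), Cdkn1a at 32.8 against 6.39 CPM, a ratio of 5.14 (2.09 to 16.4), and Birc5 at 30.8 against 7.67 CPM, a ratio of 4.02 (1.74 to 11.4). The others were Mki67, Top2a, Mcm3, Mcm7, Tyms and Rrm1, while Ccnd2 and Ccnd3 were within 1.28-fold. Of the further lists Cks2 (43.9 against 14.1 CPM), Tipin, Rfc3, Pola1, Fbxo5 (28.3 against 2.56 CPM) and Cdk6 (97.9 against 43.4 CPM) were higher in NPs.

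The other brain classes gave few calls. Astrocytes had 31 genes measured with 0 higher and 3 lower, against 2.56% of all genes higher and 2.13% lower, and all 3 stood near 1 CPM (Mki67 at 0.524 in NPs against 1.27 in untreated, Ube2c and Top2a). Endothelial cells had 1 of 17 higher and 1 lower, against 1.95% and 2.04% of all genes, namely Mcm7 at 23.4 CPM in NPs against 10.7 CPM in untreated and Mcm6 at 9.83 against 27.9 CPM, which are subunits of the same helicase. Ependymal cells had 2 of 14 higher, against 2.39% of all genes, Ccnd1 at 37.9 CPM in NPs against 15.7 CPM in untreated and Ccnd3 at 93.0 against 42.3 CPM, and 0 lower, against 1.74%. In the same cells Btg2, an antiproliferative p53 target, stood at 351 CPM in NPs against 75.6 CPM in untreated, 4.65-fold higher (3.80 to 5.69), and in endothelial cells Pmaip1, a p53 target that promotes cell death, stood at 199.7 against 85.3 CPM. Cdkn1c, the inhibitor p57, was 2.82-fold higher (1.78 to 4.42) in NPs ependymal cells. Neutrophils had 4 genes measured and none past 2-fold, against 3.43% of all genes higher and 7.12% lower.

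In the intestine the goblet cells of the NPs library held fewer positive cells and lower levels. The share was 11.9 points lower in NPs (-14.9 to -9.14). Of 39 genes measured 0 were higher and 12 lower, where 10.3% of all 13465 genes were higher and 6.82% lower, and the median log2 ratio was -0.82 against 0.12 over all genes. Ccnd2 stood at 120.4 CPM in NPs against 414 CPM in untreated, 3.44-fold lower (3.30 to 3.59). Rrm2 was 2.73-fold lower (2.45 to 3.05), Ccnb1 2.72-fold lower (2.39 to 3.10) and Cdkn3 2.48-fold lower (2.12 to 2.90). Of these 12 genes 8 were mitotic, and of the other genes of mitosis 15 of 58 were lower and 0 higher, with Pttg1, Nuf2 and Cks1b lowest by ratio.

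No cluster of goblet cells bridged the libraries. The NPs cells lay in clusters 4, 5, 6, 9, 22 and 23, with shares of 4.30% to 16.3%, and the untreated cells in clusters 21, 35 and 37, with shares of 16.7% to 31.3%. What part this separation and the difference in depth have in the result was not tested. Some genes of the cycle ran the other way in goblet cells. Cdk6, a partner of the D-type cyclins, stood at 74.6 CPM in NPs against 32.6 CPM in untreated, Cdkn1c at 9.70 against 3.33 CPM, Ung, a uracil-removing repair enzyme, at 30.0 against 14.3 CPM and Bbc3, a p53 target that promotes cell death, at 14.6 against 6.56 CPM.

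Absorptive epithelium gave the largest count of higher genes, but its direction hung on how cells were assigned to the class. The share was 2.38 points higher in NPs (1.25 to 3.51). Of 39 genes measured 28 were higher and 2 lower, where 30.8% of all 15365 genes were higher and 10.0% lower, and the median log2 ratio was 1.55 against 0.52 over all genes. All 19 mitotic genes and 5 of 12 replication genes were higher. Cenpf stood at 51.4 CPM in NPs against 7.19 CPM in untreated, a ratio of 7.15 (6.32 to 8.11), Ccnd1 at 144 against 27.9 CPM, a ratio of 5.17 (4.86 to 5.51), Mki67 at 84.6 against 16.8 CPM, a ratio of 5.03 (4.63 to 5.46), and Ccna2 at 19.6 against 4.11 CPM, a ratio of 4.77 (4.04 to 5.66). Cdkn1a was 2.10-fold lower (2.07 to 2.14) at 381 against 800.0 CPM, and Ccnd2 2.02-fold lower (1.96 to 2.09) at 113 against 227 CPM.

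The class was not the same mixture in the 2 libraries. Crypt markers summed to 287 CPM in NPs absorptive cells against 55.6 CPM in untreated ones, and absorptive markers to 20233 against 8339 CPM. The NPs cells lay in clusters 0, 1, 3 and 10, with shares of 1.09%, 10.5%, 17.3% and 10.7%, and the untreated cells in clusters 25, 26 and 33, with shares of 6.49%, 0.429% and 11.0%. Under 7 other ways of filtering or clustering, the share was lower in NPs instead, by 0.311 to 7.05 points, among them a minimum of 1000 UMIs, under which Mki67 had a log2 ratio of -0.17 and Cenpf one of -0.42. Ccnd1, Cdkn1a and Ccnd2 kept their direction under all 14 alternatives. Of the other lists, 44 of 58 genes of mitosis, 38 of 54 of replication and 15 of 28 regulators were higher, with Aspm, Ckap2l and Knstrn, Cdca7, Pold2 and Ung, and Foxm1, Cdk6 and E2f8 first, Cdca7 being also one of the crypt markers. Cdkn1c was 6.06-fold higher, and 7 of 14 p53 targets were higher, led by Sesn1 at 17.2 CPM in NPs against 3.39 CPM in untreated, Aen and Sesn2.

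T cells of the intestine differed little. The share was 3.30 points lower in NPs (-7.29 to 2.22), an interval that holds 0. Of 31 genes measured 1 was higher and 2 lower, against 5.93% of all genes higher and 3.08% lower. Cdkn1a stood at 223 CPM in NPs against 98.2 CPM in untreated, a ratio of 2.27 (1.86 to 2.75), Cenpf at 32.4 against 82.3 CPM, 2.54-fold lower (1.58 to 4.38), and Cdkn3 at 13.3 against 27.8 CPM, 2.08-fold lower (1.00 to 5.22). Cluster 28, with a share of 21.1% and Epcam at 1760 CPM, held 1021 of the untreated T cells, and without it the untreated share was 9.78% and the NPs share 8.64%. Without it too, Cdkn1a had a log2 ratio of 1.76 and Cdkn3 one of -0.92, no longer past 2-fold. Of the other lists Cdca3, Mad2l1 and Cks2 and the replication gene Rfc4 were lower in NPs.

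Plasma cells, enteroendocrine cells and fibroblasts rested on few cells in 1 of the 2 libraries. Plasma cells had 1 of 39 genes higher and 2 lower, against 4.09% and 13.8% of all genes, with Ccne1 at 16.9 CPM in NPs against 8.24 CPM in untreated, Cdkn1a at 29.4 against 94.6 CPM and Cenpe at 19.6 against 40.5 CPM. Their share was 8.65 points lower in NPs (-15.9 to 0.287). In enteroendocrine cells 11 of 19 were higher and 1 lower, against 19.5% and 4.46% of all genes. Here and in fibroblasts too a gene can be measured through its level in 1 library alone. The enteroendocrine count of higher genes ran from 1 to 21 over 9 alternatives. Cdc20 had 24 UMIs in NPs against 1 in untreated, a ratio of 27.6 (4.51 to 1136). Birc5 stood there at 78.8 CPM in NPs against 8.55 CPM in untreated, Ube2c at 108 against 13.7 CPM, Cdk1 at 57.1 against 10.3 CPM and Cdkn1a at 144 against 294 CPM. Fibroblasts had 0 of 9 higher and 5 lower, against 10.9% and 8.34% of all genes, among them Stmn1 at 12.4 CPM in NPs against 134 CPM in untreated, Top2a at 9.001 against 95.7 CPM, Hmgb2 at 63.0 against 463 CPM and Pcna at 39.4 against 99.6 CPM. Phlda3, a p53 target, was instead 3.32-fold higher (1.92 to 6.20) in NPs fibroblasts, at 178 against 53.6 CPM.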

How the data were processed

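The deposited files hold raw UMI counts per gene and barcode, which the authors made with Cell Ranger 5.0.1 on GRCm38 from 10x 3′ version 3 libraries, per the submitters' processing notes and the labels. A barcode passed here with 500 UMIs or more, 200 genes or more, and no more than 20% of UMIs from mitochondrial genes. Scrublet doublets were removed per library. Its own threshold marked almost no intestinal barcode, so a score of 0.25 was used there, which removed 0.855% of barcodes in the NPs library and 0.654% in the untreated library. Each cell was scaled to a total of 10000, logs were taken, and 2000 variable genes, 30 principal components, 15 neighbours and Leiden clustering at resolution 2 were used with scanpy 1.11.5, numpy 2.4.6, scipy 1.17.1 and Python 3.11.15, without batch correction and without the genes of the cycle. Clusters took a class name from at least 3 raised markers. The naming rule was set with the clusters in view, and Cdca7 serves as a crypt marker and in the replication list. The genes and lists were chosen with earlier results of these data known.

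Levels are UMIs summed over a class and scaled to a total of 1000000 (CPM) with exact Poisson intervals, shares have exact binomial (Clopper-Pearson) intervals (a share or level of 0 has the limit of 3 counts), share differences combine those bounds by Newcombe's method, and ratios have exact conditional binomial intervals, all at 95%. PCR and cell sampling are not covered. A gene counts as measured at 10 expected UMIs in the smaller of the 2 sums, expected from the mean of its 2 CPM values, and as higher or lower at 2-fold. Classes with at least 50 cells in both libraries were compared. Members named per class were up to 4 with the largest and 4 with the smallest ratio past 2-fold, and from other lists up to 3 per list with at least 50 UMIs, of which 2 are not reported here. The 2-fold call and the thinning were tested on simulated counts. The clustering, the naming, the doublet removal and the mitotic-gene positive call were not.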

Additional observations from a re-analysis of the deposited data

Results flagged for a closer look

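The difference between NPs and untreated in the share of mitotic-gene positive T cells had opposite signs in the tissues. In the intestine it was -3.30 points (14 of 163 cells in NPs against 375 of 3155 in untreated), and in the brain it was 2.14 points (11 of 407 cells in NPs against 1 of 179 in untreated), so that the brain difference lay 5.44 points above the intestinal one. Each contrast is 1 library against 1, both intervals hold 0, and the difference between tissues was not tested. Thinned to 2000 UMIs the intestinal difference was 2.73 points, the same sign as in the brain. Of the 23 genes measured in T cells of both tissues, 14 had ratios of opposite sign, and 0 of these were past 2-fold in both.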

How the results depend on the processing

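No paired analysis was possible because each group is 1 library, and for the same reason no replicate could be left out. Over 14 alternatives, the microglial share difference stayed between -0.874 and -0.334 points and that of progenitors between -8.30 and -0.912 points, and Mki67, Ccnb2 and Birc5 stayed lower in NPs microglia. The absorptive share difference was lower in NPs under 7 alternatives, at -5.30 points with a mitochondrial limit of 10%, -7.05 with a minimum of 1000 UMIs, -1.35 with doublets kept, -5.43 at resolution 1, -0.311 at resolution 3, -2.93 with libraries clustered separately and -5.90 with the genes of the cycle kept in the clustering. It was 0.464 with no mitochondrial limit, 14.1 with no thinning and 4.83 thinned to 2000 UMIs. The cause was not tested.

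The goblet difference was -15.3 points with a minimum of 1000 UMIs, -15.9 with libraries clustered separately, -15.8 with the genes of the cycle kept, -14.9 with at least 1 mitotic gene, -6.25 with at least 3, -8.28 unthinned and -15.9 thinned to 2000 UMIs. The plasma cell difference was 0.467 points with a mitochondrial limit of 10%, 5.01 with none, 6.26 with libraries clustered separately and -22.2 with at least 1 mitotic gene. With at least 1 mitotic gene the astrocyte difference was -0.229 points and that of brain T cells 4.33. The enteroendocrine difference was 2.85 points with at least 3 mitotic genes and 42.1 unthinned, the microglial one -0.874 unthinned, and that of intestinal T cells 2.73 thinned to 2000 UMIs.

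Summed over classes, 41 of 176 measured pairs of gene and class in the intestine were called higher and 24 lower. In the brain 13 of 168 were called higher and 28 lower. Of the intestinal higher calls 28 came from absorptive epithelium, where 30.8% of all genes were higher too. The shares over all genes are given with each class above and were not counted under the alternatives, so the counts below only show how the calls move. Intestinal higher calls numbered 5 with a mitochondrial limit of 10%, 22 with none, 2 with a minimum of 1000 UMIs, 15 at resolution 1, 18 at resolution 3, 17 with libraries clustered separately, 4 with the genes of the cycle kept and 18 from means over cells. Intestinal lower calls numbered 14 with a mitochondrial limit of 10%, 37 from means over cells and 54 at 1.5-fold. Brain higher calls numbered 22 at 1.5-fold, 25 with 5 expected UMIs, 0 with 50 expected UMIs and 7 from means over cells, and brain lower calls 16 with 50 expected UMIs. In absorptive epithelium Cenpf, Mki67 and Ccna2 had log2 ratios of -0.42, -0.17 and -0.50 with a minimum of 1000 UMIs, and with the genes of the cycle kept Cenpf and Ccna2 had -0.060 and -0.056. Cdkn1a in plasma cells had 0.96 with a mitochondrial limit of 10% and 1.53 with libraries clustered separately. Mki67 in astrocytes had 0.74 with no mitochondrial limit, 0.24 with doublets kept and 0.78 at resolution 3. Some alternatives left enteroendocrine cells, fibroblasts, ependymal cells or intestinal T cells without 50 cells in a library, and gave no value there.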
